A study of Homo sapiens with 12 samples.

Results

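The genes described here are known targets of the hypoxia-inducible factors, or HIFs, other than those of glycolysis and glucose uptake, together with the genes of both HIF alpha subunits, HIF1A and EPAS1. The list holds 38 symbols taken from general knowledge of the HIF response, and was chosen with earlier results of these data known. A symbol was measured where the array's annotation gave a probe set that symbol alone, and the brightest such probe set stood for the gene. This gave values for 36 of the 38 genes, among 18404 genes measured in this way. CA9 and FUT11 were not analysed here. All 36 passed the filter on dim probe sets, as did 13199 genes of the array in total.

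Affymetrix Human Gene 1.0 ST arrays, 12 in all, measured the messenger RNA of HepG2C3A cells, a human hepatic cell line of tumour origin. Acetaminophen-treated and control cells were each grown for 96 h in a culture microsystem or in Petri dishes, and treatment lasted 72 h. The 4 groups were therefore treated cells in the microsystem, control cells in the microsystem, treated cells in Petri dishes and control cells in Petri dishes, with 3 arrays in each. The labels used here give no acetaminophen dose, no description of the microsystem and no oxygen level for either culture. All groups come from 1 cell line, and the labels do not say that replicates were separate cultures, so the p-values reflect the spread among these samples alone, and that spread may be technical. An unexplained asterisk stands after the description of Petri treated array 3.

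Cells sense oxygen through prolyl hydroxylases, which mark the HIF alpha proteins for destruction while oxygen is present. When oxygen is scarce the alpha subunit is kept, pairs with ARNT and binds DNA at the short sequence ACGTG or GCGTG beside genes that it turns on. Those genes raise blood supply, remove mitochondria, alter the matrix and slow growth, and a few of them feed back on the factor itself. The liver has a natural oxygen gradient, and liver tumour cells respond strongly to low oxygen. HIF alpha activity is set mainly at the protein level, which these arrays do not measure.

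The DNA before the start of 5 of the genes is shown here because they differ in their share of the HIF core letters and in how they moved between the cultures. The windows run from 250 bases before to 50 bases after the gene's start, in RefSeq on GRCh38.p14, and are written 5′ to 3′ on the gene's strand. Capitals mark ACGTG or GCGTG on either strand. A palindromic CACGTG is counted as 2 matches. The 5 were chosen after their values were seen. ANKRD37 lies at chr4:185396591-185396890 on the plus strand, BNIP3 at chr10:131981874-131982173 on the minus strand, ANGPTL4 at chr19:8363905-8364204 on the plus strand, EGLN3 at chr14:33951025-33951324 on the minus strand and PLOD2 at chr3:146161135-146161434 on the minus strand.
ANKRD37: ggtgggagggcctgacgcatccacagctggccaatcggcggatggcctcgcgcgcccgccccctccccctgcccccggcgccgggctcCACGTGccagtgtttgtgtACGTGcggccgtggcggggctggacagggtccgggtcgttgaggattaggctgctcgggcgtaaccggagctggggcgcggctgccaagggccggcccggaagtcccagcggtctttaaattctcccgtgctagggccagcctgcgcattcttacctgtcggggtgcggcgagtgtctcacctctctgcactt
BNIP3: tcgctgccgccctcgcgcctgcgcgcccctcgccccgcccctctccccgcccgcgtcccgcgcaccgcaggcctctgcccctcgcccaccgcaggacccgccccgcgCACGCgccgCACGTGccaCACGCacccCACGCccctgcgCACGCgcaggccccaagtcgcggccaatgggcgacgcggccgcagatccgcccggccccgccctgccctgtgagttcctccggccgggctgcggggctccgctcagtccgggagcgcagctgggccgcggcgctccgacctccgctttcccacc
ANGPTL4: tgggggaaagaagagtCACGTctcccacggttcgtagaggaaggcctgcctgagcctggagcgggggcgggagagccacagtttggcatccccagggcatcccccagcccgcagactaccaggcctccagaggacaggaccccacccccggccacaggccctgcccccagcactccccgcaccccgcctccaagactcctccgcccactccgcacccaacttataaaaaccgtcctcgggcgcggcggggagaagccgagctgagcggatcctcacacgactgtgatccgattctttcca
EGLN3: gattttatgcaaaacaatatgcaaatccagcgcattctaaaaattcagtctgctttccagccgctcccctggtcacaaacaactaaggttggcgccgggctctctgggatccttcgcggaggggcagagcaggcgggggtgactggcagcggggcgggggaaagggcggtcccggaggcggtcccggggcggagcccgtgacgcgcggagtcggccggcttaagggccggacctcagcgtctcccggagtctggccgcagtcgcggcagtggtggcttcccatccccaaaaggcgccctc
PLOD2: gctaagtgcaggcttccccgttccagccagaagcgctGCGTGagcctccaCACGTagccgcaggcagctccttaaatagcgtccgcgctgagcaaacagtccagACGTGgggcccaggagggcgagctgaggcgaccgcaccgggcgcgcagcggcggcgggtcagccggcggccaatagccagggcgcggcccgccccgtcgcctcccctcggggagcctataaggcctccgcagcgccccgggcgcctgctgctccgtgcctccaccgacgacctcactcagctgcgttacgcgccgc

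The windows of ANKRD37, BNIP3 and ANGPTL4 held 3, 6 and 1 matches, that of EGLN3 held 0, and that of PLOD2, a gene whose level did not pass the test between the cultures, held 3. RefSeq windows were at hand for 29 of the 36 genes, and 26 of these 29 (89.7%) had at least 1 match, against 14318 of 27305 genes (52.4%) with a window of the same length. No window was at hand for NDRG1, VEGFA, BNIP3L, HILPDA, JMJD6, ZNF395 and RAB20. Base composition was not matched between these sets, and the 27305 genes were not limited to those measured or tested here. Among the genes that fell in both culture comparisons 20 of 22 (90.9%) had a match, and among the other genes of the list 6 of 7 (85.7%). These are descriptions of letters in a window and not of binding.

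Medians of the log2 values ranged over the arrays from 5.556 to 5.629. Arrays of 1 group correlated with r between 0.9914 and 0.9946 over all probe sets, and the first principal component, with 63.7% of the variance, parted the cultures. The third, with 6.77%, set both microsystem arrays numbered 3 apart. All 9 hepatocyte markers measured of a list of 10 were above the 40th percentile on all 12 arrays. Of 6 fibroblast and stellate markers, 4 were above the 40th percentile on all 12 arrays, and DCN and LUM on 0 arrays. Of the 4 tested, 0 rose and 0 fell between the cultures. Of 5 endothelial markers none passed the filter. Of 6 immune markers PTPRC, CD3E and MS4A1 were above the 40th percentile on 0 arrays, while CD68 and CD14 fell and LYZ rose between the cultures. The mean log2 level of the immune list lay between 5.889 and 5.969 in treated and between 5.908 and 5.958 in control cells of the microsystem, against 6.095 to 6.161 in treated and 6.147 to 6.203 in control cells of the Petri dishes. The part of this difference in the results on culture was not tested. The labels name 1 cell line and no other cell type, so these are levels of marker genes in cultures of that line. They are not counts of cells.

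Most of the HIF targets were lower in the microsystem than in Petri dishes, with or without acetaminophen. In treated cells 31 of the 36 genes fell, 1 rose and 4 did not pass the test. A gene is said to have risen or fallen where the adjusted p of the limma fit over all 13199 genes was under 0.05. Of all genes tested 18.9% fell and 22.6% rose in that comparison. The median log2 difference, microsystem minus Petri, was -0.94 over the 36 genes and 0.00 over all genes tested. In control cells 30 genes fell, 1 rose and 5 did not pass, while 18.3% of all genes tested fell and 26.5% rose. There the median was -0.83 over the list and 0.01 over all genes tested.

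The falls were large. Of the 36 genes, 25 fell by at least 1.5-fold in treated cells and 26 in control cells. Over all 13199 genes tested, 841 did so in treated cells and 858 in control cells. Ranked among the falls of all genes tested, NDRG1 stood at place 5 in treated cells and place 7 in control cells. Among 13199 genes tested, the 100 largest falls held 8 of the 36 genes in treated cells and 7 in control cells. The 3 microsystem arrays lay wholly below the 3 Petri arrays for 31 genes in treated cells, where 24.8% of all genes tested did so, and for 30 genes in control cells, where 22.9% did so. They lay wholly above for 1 gene in each, while 28.1% of all genes tested did so in treated cells and 29.5% in control cells.

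**Figure D1:**
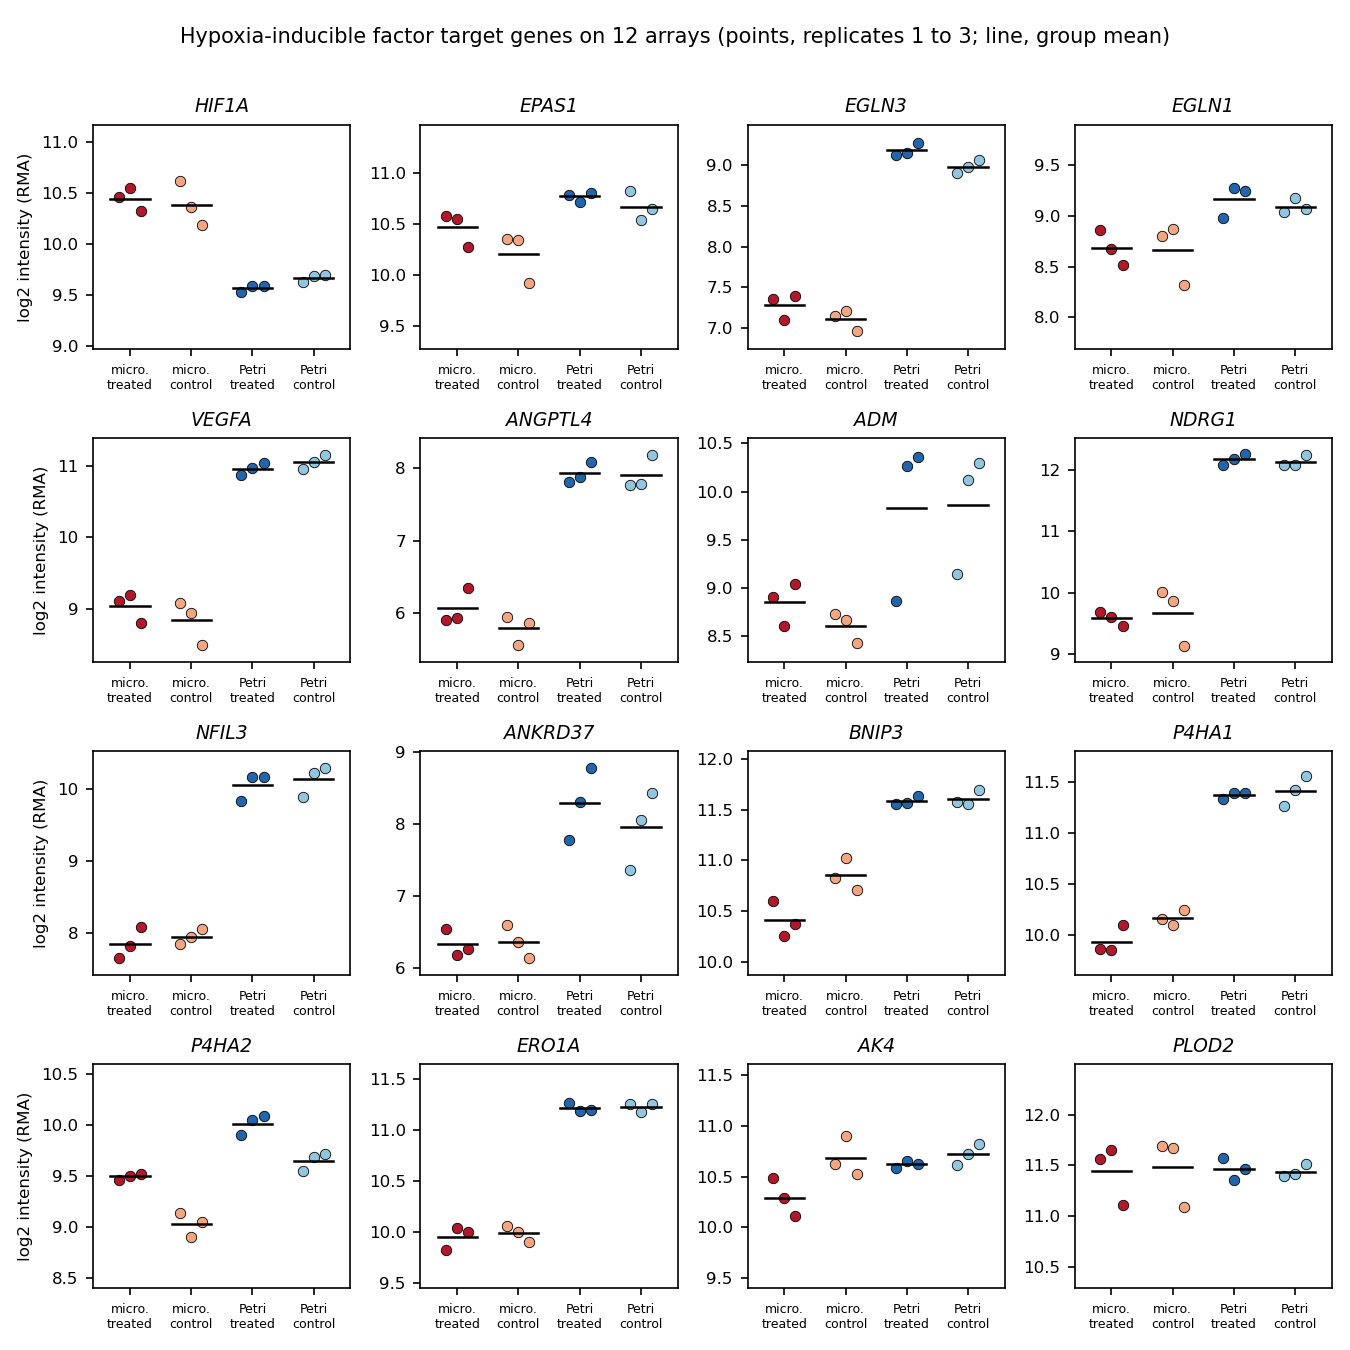
Deposited log2 values (vertical axes) of 16 genes in each of the 12 arrays, by group along the horizontal axis from treated and control cells of the microsystem to treated and control cells of the Petri dishes. Points are arrays and bars are group means. NDRG1, VEGFA, ANGPTL4, NFIL3 and EGLN3 stand lower in all 6 microsystem arrays, HIF1A stands higher there, and PLOD2 overlaps between the cultures.

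In control cells the alpha subunits themselves moved in opposite directions. HIF1A, the subunit present in nearly all cells, read 10.46, 10.55 and 10.32 in treated and 10.61, 10.36 and 10.18 in control cells of the microsystem, against 9.52, 9.58 and 9.59 in treated and 9.63, 9.68 and 9.69 in control cells of the Petri dishes. Every microsystem array was above every Petri array. HIF1A rose by 0.88 ± 0.10 in treated cells on the log2 scale (SE, n = 3 per group), or 1.84-fold, with adjusted p = 1.89e-05, and by 0.72 ± 0.10 in control cells (adjusted p = 8.24e-05). It was the 1 gene of the list that rose in either comparison. EPAS1, which encodes HIF-2 alpha, read 10.58, 10.55 and 10.28 in treated and 10.36, 10.34 and 9.93 in control cells of the microsystem, against 10.79, 10.72 and 10.81 in treated and 10.83, 10.55 and 10.65 in control cells of the Petri dishes. Its lowest value was in microsystem control array 3, and in both comparisons the microsystem arrays lay below the Petri arrays. The difference of EPAS1 was -0.30 ± 0.12 in treated cells (adjusted p = 0.0634) and -0.46 ± 0.12 in control cells (adjusted p = 0.00755). It passed the test in control cells alone, but the difference in treated cells also passed with a replicate block (adjusted p = 0.0348), with array weights (adjusted p = 0.0465) and with only the arrays compared (adjusted p = 0.0311). Without microsystem control array 3, which bears on the comparison in treated cells through the shared spread, the adjusted p in treated cells was 0.0236. The difference between those 2 differences did not pass the test (adjusted p = 0.889).

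The 3 oxygen sensing and feedback genes of the list, EGLN3, EGLN1 and CITED2, were lower in the microsystem. HIF1AN, an oxygen-dependent hydroxylase outside the list, was higher there and is given below with the other regulators. EGLN3, a prolyl hydroxylase that marks HIF alpha and is itself induced by HIF, read 7.35, 7.10 and 7.40 in treated and 7.15, 7.21 and 6.95 in control cells of the microsystem, against 9.13, 9.15 and 9.28 in treated and 8.90, 8.98 and 9.07 in control cells of the Petri dishes. No microsystem value came within 1 log2 unit of a Petri value. The difference was -1.90 ± 0.10 in treated cells (3.74-fold lower, adjusted p = 3.76e-08) and -1.88 ± 0.10 in control cells (adjusted p = 5.24e-08), the smallest p-values of the list in both. EGLN1, the main prolyl hydroxylase of the pathway, fell by less, with -0.48 in treated cells (adjusted p = 0.0135) and -0.43 in control cells (adjusted p = 0.0229). In treated cells its adjusted p was 0.0548 without microsystem treated array 3, 0.0544 without Petri treated array 2 and 0.0525 without Petri treated array 3. In control cells it was 0.0755 without Petri control array 2. Without microsystem control array 3 it was 0.0968, and the difference itself shrank to -0.25.

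CITED2, which competes with HIF for its coactivators, read 7.17, 7.14 and 6.83 in treated and 7.44, 7.61 and 7.15 in control cells of the microsystem, against 7.92, 8.57 and 8.59 in treated and 8.15, 8.47 and 8.47 in control cells of the Petri dishes. The groups of each comparison did not overlap, and Petri treated array 1 was the lowest of the Petri values. Its difference was -1.31 ± 0.18 in treated cells (adjusted p = 6.81e-05) and -0.97 ± 0.18 in control cells (adjusted p = 0.000619). The oxygen-dependent enzymes KDM3A and KDM4B, which remove methyl groups from histone H3, fell by 0.84 and 0.87 in treated cells and by 0.91 and 0.83 in control cells on the log2 scale. JMJD6, an oxygenase that acts on splicing proteins, fell by 0.57 in treated cells (adjusted p = 0.00132). In control cells its fall of 0.32 (adjusted p = 0.0343) was lost when microsystem control array 2 or 3 or Petri control array 2 or 3 was left out, with adjusted p of 0.0641, 0.128, 0.0623 and 0.141.

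Among the secreted factors VEGFA, the main signal for new blood vessels, read 9.12, 9.20 and 8.81 in treated and 9.09, 8.94 and 8.49 in control cells of the microsystem, against 10.87, 10.96 and 11.04 in treated and 10.95, 11.06 and 11.15 in control cells of the Petri dishes. All 6 microsystem values were below all 6 Petri values, and the lowest were those of the microsystem arrays numbered 3. VEGFA fell 3.78-fold in treated cells (-1.92 ± 0.14, adjusted p = 5.15e-07) and 4.63-fold in control cells (-2.21 ± 0.14, adjusted p = 1.9e-07). ANGPTL4, a secreted inhibitor of lipoprotein lipase that is also induced by fasting signals, read 5.91, 5.94 and 6.35 in treated and 5.95, 5.56 and 5.87 in control cells of the microsystem, against 7.81, 7.88 and 8.09 in treated and 7.76, 7.79 and 8.18 in control cells of the Petri dishes. Again no values overlapped between the cultures. It fell 3.63-fold in treated cells (-1.86 ± 0.15, adjusted p = 9.69e-07) and 4.33-fold in control cells (-2.12 ± 0.15, adjusted p = 3.43e-07).

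ADM, the vessel-dilating peptide adrenomedullin, was the most variable of the 3. It read 8.91, 8.60 and 9.04 in treated and 8.73, 8.67 and 8.43 in control cells of the microsystem, against 8.86, 10.27 and 10.36 in treated and 9.15, 10.12 and 10.30 in control cells of the Petri dishes. The Petri arrays numbered 1 were more than 0.9 log2 units below the other Petri arrays, and in treated cells Petri array 1 lay within the range of the microsystem. The difference was -0.98 ± 0.35 in treated cells (adjusted p = 0.0364) and -1.25 ± 0.35 in control cells (adjusted p = 0.00997). The call in treated cells was lost without microsystem treated array 1 or 2, with adjusted p of 0.071 and 0.115, and without Petri treated array 2 or 3, with 0.142 and 0.155. That in control cells was lost without Petri control array 3 (adjusted p = 0.0508). Of the surface carbonic anhydrases, which control acidity outside the cell, CA12 had a difference of -0.24 ± 0.08 in treated cells (adjusted p = 0.0371) and -0.14 ± 0.08 in control cells (adjusted p = 0.186). CA12 was dim, above the 40th percentile on 1 of 3 treated and 2 of 3 control arrays of the microsystem. Its call in treated cells was lost without microsystem treated array 1 or 3 or Petri treated array 2 or 3, with adjusted p of 0.0934, 0.0908, 0.0991 and 0.104. In control cells it passed without microsystem control array 3 (adjusted p = 0.0448).

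Of the 4 genes that act on mitochondria, all fell in treated cells and 3 in control cells. BNIP3, an outer-membrane receptor that sends mitochondria to autophagy, read 10.60, 10.26 and 10.38 in treated and 10.83, 11.03 and 10.71 in control cells of the microsystem, against 11.56, 11.56 and 11.64 in treated and 11.57, 11.55 and 11.69 in control cells of the Petri dishes. The microsystem values were below the Petri values in both comparisons, and those of treated cells were the lowest. BNIP3 fell by 1.17 on the log2 scale in treated cells (adjusted p = 2e-06) and by 0.75 in control cells (adjusted p = 6.39e-05). Its relative BNIP3L, with the same role, fell by 1.04 in treated cells and 1.01 in control cells. FAM162A, a mitochondrial protein induced by low oxygen, read 7.76, 7.57 and 7.33 in treated and 8.16, 8.26 and 7.84 in control cells of the microsystem, against 8.24, 8.67 and 8.56 in treated and 8.33, 8.58 and 8.77 in control cells of the Petri dishes. Its groups did not overlap in either comparison, and its difference was -0.94 ± 0.15 in treated cells (adjusted p = 0.000302) and -0.47 ± 0.15 in control cells (adjusted p = 0.0219). In control cells the call was lost without microsystem control array 3 or Petri control array 2 or 3, with adjusted p of 0.0905, 0.0584 and 0.0993.

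AK4, an adenylate kinase of the mitochondrial matrix, read 10.48, 10.29 and 10.11 in treated and 10.63, 10.90 and 10.53 in control cells of the microsystem, against 10.59, 10.66 and 10.62 in treated and 10.62, 10.73 and 10.82 in control cells of the Petri dishes. In control cells the cultures overlapped, and in treated cells the microsystem lay below the Petri dishes. Its difference was -0.33 ± 0.11 in treated cells (adjusted p = 0.0291) and -0.04 ± 0.11 in control cells (adjusted p = 0.812). The call in treated cells was lost without microsystem treated array 2 or 3 or Petri treated array 2 or 3, with adjusted p of 0.0684, 0.122, 0.081 and 0.0701. AK4 and BNIP3 have near-identical copies elsewhere in the genome, so their values are uncertain. A second probe set of AK4, dimmer by mean, differed by -0.24 in treated and -0.08 in control cells.

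Of the genes for collagen modification and protein oxidation in the endoplasmic reticulum, 4 of 5 fell in each comparison. P4HA1, a catalytic subunit of collagen prolyl hydroxylase, read 9.86, 9.85 and 10.10 in treated and 10.16, 10.09 and 10.25 in control cells of the microsystem, against 11.33, 11.40 and 11.39 in treated and 11.26, 11.42 and 11.56 in control cells of the Petri dishes. All microsystem values lay more than 1 log2 unit below all Petri values. Its difference was -1.44 ± 0.09 in treated cells (adjusted p = 2.37e-07) and -1.25 ± 0.09 in control cells (adjusted p = 6.24e-07). ERO1A, the oxidase that helps proteins form disulfide bonds, read 9.82, 10.04 and 10.003 in treated and 10.06, 9.999 and 9.90 in control cells of the microsystem, against 11.27, 11.19 and 11.20 in treated and 11.26, 11.18 and 11.26 in control cells of the Petri dishes. It too had no overlap, and it fell 2.41-fold in treated cells and 2.37-fold in control cells, with adjusted p of 1.78e-07 and 1.99e-07. P4HA2, the second collagen prolyl hydroxylase subunit, and PLOD1, a collagen lysyl hydroxylase, fell by 0.52 and 0.46 in treated cells and by 0.62 and 0.64 in control cells.

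PLOD2, another collagen lysyl hydroxylase known as a HIF target, did not pass the test. Its difference was -0.02 in treated cells (95% interval -0.37 to 0.32, adjusted p = 0.925) and 0.05 in control cells (95% interval -0.30 to 0.39, adjusted p = 0.834). PLOD2 read 11.57, 11.65 and 11.11 in treated and 11.69, 11.68 and 11.09 in control cells of the microsystem, against 11.58, 11.35 and 11.46 in treated and 11.39, 11.41 and 11.51 in control cells of the Petri dishes. The microsystem arrays numbered 3 were more than 0.4 log2 units below the other microsystem arrays. With both of these left out, an alternative chosen after seeing the data, PLOD2 was higher in the microsystem by 0.14 in treated cells (adjusted p = 0.229) and by 0.24 in control cells (adjusted p = 0.0433).

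Of the 7 regulators of growth and transcription 6 fell in each comparison, and NDRG1 had the largest fall of the list in both. NDRG1, a stress-induced protein that restrains growth and spread of tumour cells, read 9.69, 9.62 and 9.46 in treated and 10.01, 9.86 and 9.13 in control cells of the microsystem, against 12.09, 12.17 and 12.26 in treated and 12.08, 12.08 and 12.25 in control cells of the Petri dishes. Every microsystem value was more than 2 log2 units below every Petri value. NDRG1 fell 6.01-fold in treated cells (-2.59 ± 0.17, adjusted p = 2.49e-07) and 5.53-fold in control cells (-2.47 ± 0.17, adjusted p = 3.34e-07). NFIL3, a transcription repressor of the bZIP family, read 7.64, 7.82 and 8.08 in treated and 7.84, 7.93 and 8.05 in control cells of the microsystem, against 9.83, 10.16 and 10.16 in treated and 9.88, 10.22 and 10.29 in control cells of the Petri dishes. The cultures did not overlap, and it fell 4.59-fold in treated cells (adjusted p = 1.47e-07) and 4.55-fold in control cells (adjusted p = 1.69e-07).

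DDIT4, which slows growth by restraining mTORC1, read 8.70, 8.50 and 8.05 in treated and 8.32, 8.57 and 8.13 in control cells of the microsystem, against 8.86, 9.99 and 10.07 in treated and 9.34, 10.10 and 10.22 in control cells of the Petri dishes. The Petri arrays numbered 1 were again the lowest of their groups, though still above the microsystem arrays. Its difference was -1.22 ± 0.30 in treated cells (adjusted p = 0.00492) and -1.55 ± 0.30 in control cells (adjusted p = 0.000914). ZNF395, a transcription factor, read 6.82, 6.70 and 6.80 in treated and 6.94, 7.18 and 7.22 in control cells of the microsystem, against 8.42, 8.16 and 8.18 in treated and 8.51, 8.43 and 8.50 in control cells of the Petri dishes. It fell 2.79-fold in treated cells (adjusted p = 1.86e-07) and 2.57-fold in control cells (adjusted p = 3.34e-07), with no overlap. MXI1, an antagonist of MYC, and BHLHE40, a repressor tied to the circadian clock, fell by 1.22 and 0.99 in treated cells and by 1.23 and 1.24 in control cells. CCNG2, an unusual cyclin that slows the cell cycle, did not pass, with a difference of -0.01 in treated cells (adjusted p = 0.974) and -0.19 in control cells (adjusted p = 0.183).

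All 3 genes of glycogen and lipid handling fell in both comparisons. GBE1, the glycogen branching enzyme, fell by 0.79 in treated cells and 0.81 in control cells. HILPDA, a lipid droplet protein that blocks fat breakdown, fell by 1.05 in treated cells and 0.73 in control cells. INSIG2, which holds back the activation of sterol synthesis, fell by 0.76 in treated cells and 0.83 in control cells. Of the remaining induced genes, ANKRD37, an ankyrin-repeat protein, read 6.55, 6.19 and 6.27 in treated and 6.61, 6.37 and 6.14 in control cells of the microsystem, against 7.78, 8.31 and 8.78 in treated and 7.37, 8.07 and 8.44 in control cells of the Petri dishes. The cultures were apart by more than 0.7 log2 units, and the Petri arrays numbered 1 were the lowest of their groups. ANKRD37 fell 3.88-fold in treated cells (adjusted p = 6.28e-05) and 3-fold in control cells (adjusted p = 0.000277). WSB1, a substrate receptor of a ubiquitin ligase, PPFIA4, a scaffold protein of the liprin family, and RAB20, a small GTPase, fell by 0.62, 0.93 and 0.90 in treated cells and by 0.80, 0.68 and 0.94 in control cells. PPFIA4 was dim in the microsystem, like CA12, and was above the 40th percentile on 1 of 3 treated and 2 of 3 control arrays there. TMEM45A, a membrane protein, did not pass, with -0.03 in treated cells (95% interval -0.29 to 0.22) and 0.03 in control cells (95% interval -0.23 to 0.28).

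**Figure D2:**
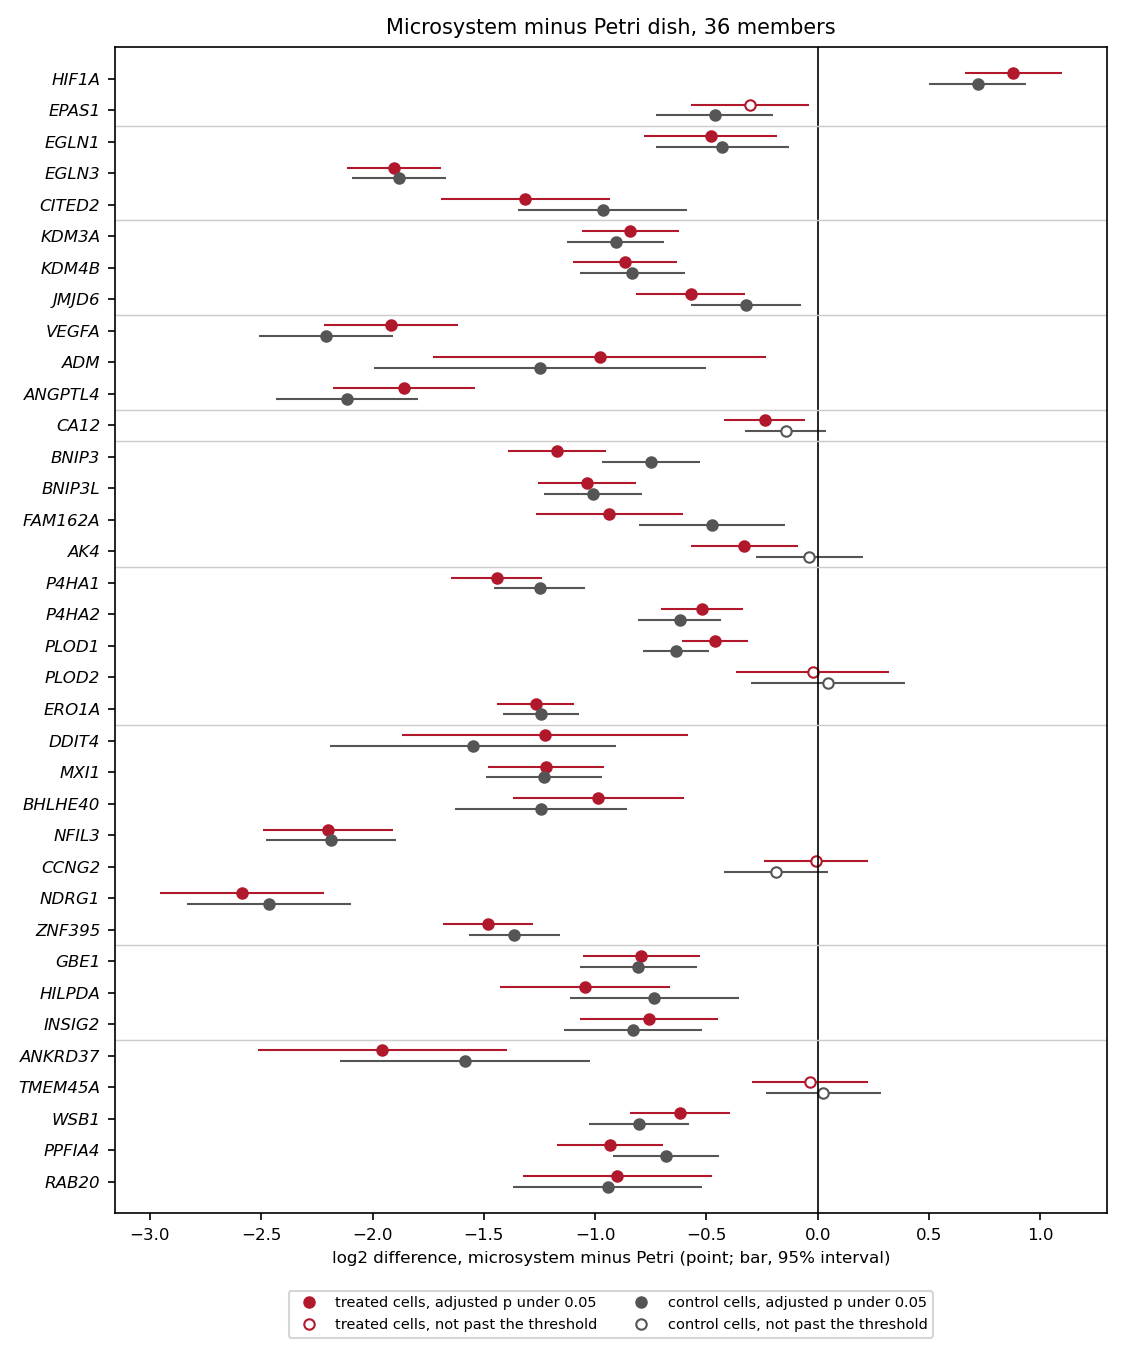
Log2 difference between the cultures (microsystem minus Petri, horizontal axis) of each of the 36 genes, in treated and in control cells, with 95% intervals from the limma fit. Most points lie left of 0, down to -2.59 for NDRG1 in treated cells, and HIF1A lies right of 0 in both.

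The comparisons of the cultures in treated and in control cells share no arrays. Of the 36 genes 34 (94.4%) had the same sign in both, as did 83.9% of all genes tested. The genes called in both were HIF1A, which rose, and 29 genes that fell. Across the 36 genes the log2 differences correlated with r = 0.954 and rho = 0.926, and across all genes tested with r = 0.912, where genes are not independent replicates.

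Within a group the genes of the list tended to be low on the same array. On Petri treated array 1, 32 of the 36 genes (88.9%) had their lowest value of the group, against 46.8% of all genes tested. On Petri control array 1 this held for 26 genes (72.2%, against 39.1%). In the microsystem, treated array 3 held the lowest value for 20 genes (55.6%, against 34.1%) and control array 3 for 26 genes (72.2%, against 37.2%). The median deviations of the 36 genes from their group mean on these 4 arrays were -0.085, -0.098, -0.055 and -0.173, which is small beside the median differences between the cultures. Other arrays lay to the high side. The medians were 0.102 on Petri control array 3, 0.073 on Petri treated array 3 and 0.114 on microsystem control array 1.

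**Figure D3:**
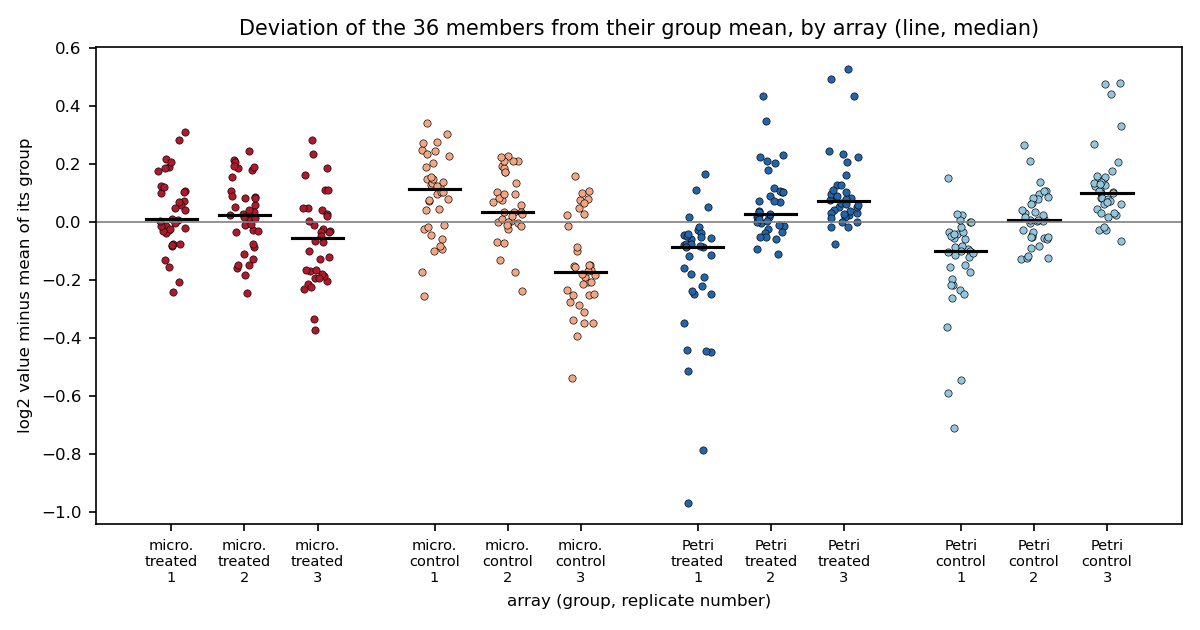
Deviation of each of the 36 genes from its group mean (log2, vertical axis) on each of the 12 arrays, from the microsystem to the Petri dishes, with the median of the genes marked. The medians of Petri treated array 1, Petri control array 1 and microsystem control array 3 lie below 0, at -0.085, -0.098 and -0.173.

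The other genes of the pathway were counted for comparison, in lists taken from general knowledge and also chosen with earlier results known. Of 13 tested regulators of HIF outside the list, 2 rose and 4 fell in treated cells, and 4 rose and 5 fell in control cells. Of all genes tested 22.6% rose and 18.9% fell in treated cells, and 26.5% rose and 18.3% fell in control cells, shares that apply to the counts of the next lists too. ARNT, the partner of the alpha subunits, had a difference of -0.53 ± 0.09 in treated cells and -0.81 ± 0.09 in control cells. HIF1AN, an asparaginyl hydroxylase that blocks HIF activity, had 0.49 ± 0.09 and 0.65 ± 0.09, and SIAH2, which targets prolyl hydroxylases for destruction, had -0.65 ± 0.15 and -0.75 ± 0.15. Of 18 tested HIF targets in glycolysis and glucose uptake 14 fell in each comparison, led by the hexokinase HK2 with -3.15 in treated and -2.55 in control cells. Of 25 further HIF targets outside the list, 14 fell in each comparison, while 4 rose in treated and 3 in control cells. Among those, LOX, an enzyme that crosslinks collagen, had -2.56 in treated cells and EFNA1, an ephrin ligand, had -2.06 in control cells.

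With acetaminophen 7 of the 36 genes passed the test in the microsystem and 1 in Petri dishes. In Petri dishes 1 of the 36 genes rose and 0 fell, while 8.38% of all genes tested rose and 1.98% fell. The median difference, treated minus control, was 0.02 over the list and 0.01 over all genes tested. At an unadjusted p under 0.05 there were 4 of the 36 genes (11.1%), 3 higher and 1 lower, against 26.3% of all genes tested. Of the 35 genes that did not pass, 30 had a 95% interval within 1.5-fold in either direction. In the microsystem 3 of the 36 genes rose and 4 fell, while 6.39% of all genes tested rose and 2.67% fell. The median there was -0.03 over the list and -0.01 over all genes tested, and 9 genes (25%) had an unadjusted p under 0.05, against 25.8% of all genes tested. Treated arrays lay wholly above control arrays for 5 genes and wholly below for 6 in the microsystem, where 15.2% and 12.4% of all genes tested did so. In Petri dishes this held for 5 and 2 genes, where 21% and 13.5% of all genes tested did so. No change with treatment that passed the test reached 1.5-fold. Of the 29 genes that did not pass, 23 had a 95% interval within 1.5-fold.

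P4HA2 was the 1 gene of the list that rose with acetaminophen in both cultures. In the microsystem it read 9.46, 9.50 and 9.52 in treated cells, against 9.13, 8.90 and 9.05 in control cells. In Petri dishes it read 9.90, 10.05 and 10.09 in treated cells, against 9.55, 9.68 and 9.71 in control cells. The groups did not overlap in either culture. Its difference was 0.47 ± 0.09 in the microsystem (1.38-fold, adjusted p = 0.00602) and 0.37 ± 0.09 in Petri dishes (1.29-fold, adjusted p = 0.0163). In Petri dishes the call was lost without control array 1, treated array 2 or treated array 3, with adjusted p of 0.0584, 0.0695 and 0.0765. In the microsystem it was kept whichever array was left out, with a highest adjusted p of 0.0282.

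In Petri dishes the replicate numbers were taken to pair the arrays, by the correlations given with the processing. The main fit, which gave the counts above, had no such block. With replicate number as a block within each culture, 2 genes rose in place of 1. These were P4HA2 (adjusted p = 0.0101) and ANKRD37, which was 0.33 ± 0.08 higher in treated cells (adjusted p = 0.0199, against 0.449 without the block). ANKRD37 was higher in the treated than in the control array of each of the 3 numbers.

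Besides P4HA2, 6 genes passed the test with acetaminophen in the microsystem, among them 3 of the 4 mitochondrial genes. BNIP3, whose 12 values are given above, was lower in treated cells, with no overlap between the groups and a difference of -0.44 ± 0.10 (adjusted p = 0.0184). FAM162A and AK4 also fell, by 0.53 (adjusted p = 0.0466) and 0.39 (adjusted p = 0.0433), and neither had overlapping groups. In Petri dishes the differences of BNIP3, FAM162A and AK4 were -0.02, -0.07 and -0.10, and none passed. The dimmer probe set of AK4 differed with treatment by -0.38 in the microsystem and -0.22 in Petri dishes. ZNF395 fell by 0.34 (adjusted p = 0.0397) in the microsystem, with a difference of -0.22 in Petri dishes (adjusted p = 0.156).

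CCNG2 read 7.77, 7.98 and 7.61 in treated cells of the microsystem, against 7.48, 7.38 and 7.20 in control cells. In Petri dishes it read 7.72, 7.88 and 7.78 in treated cells, against 7.52, 7.41 and 7.68 in control cells. Treated values were above control values in both cultures, and CCNG2 rose by 0.43 ± 0.11 in the microsystem (adjusted p = 0.0263), with 0.25 ± 0.11 in Petri dishes (adjusted p = 0.158). WSB1 read 9.52, 9.56 and 9.47 in treated cells of the microsystem, against 9.35, 9.11 and 8.86 in control cells. In Petri dishes it read 10.05, 10.21 and 10.15 in treated cells, against 9.91, 9.91 and 9.89 in control cells. Again no values overlapped, and WSB1 rose by 0.41 ± 0.10 in the microsystem (adjusted p = 0.0277), with 0.23 ± 0.10 in Petri dishes (adjusted p = 0.184).

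Of the 7 calls in the microsystem, 6 depended on single arrays. Without microsystem treated array 2 the adjusted p was 0.0893 for BNIP3, 0.121 for FAM162A, 0.122 for AK4, 0.146 for ZNF395, 0.12 for CCNG2 and 0.0994 for WSB1. Without microsystem control array 2 it was 0.0786 for BNIP3, 0.157 for FAM162A, 0.157 for AK4, 0.125 for ZNF395, 0.0675 for CCNG2 and 0.0773 for WSB1. Fewer calls were lost with other arrays left out. Without microsystem treated array 1 the adjusted p was 0.0574 for CCNG2, 0.0651 for WSB1 and 0.0647 for ZNF395, and without treated array 3 it was 0.0509 for BNIP3, 0.135 for FAM162A, 0.129 for AK4 and 0.0711 for ZNF395. Without microsystem control array 1 it was 0.0892 for FAM162A and 0.051 for AK4, and without control array 3 it was 0.0855 for CCNG2, 0.0818 for WSB1 and 0.12 for ZNF395. When Petri control array 2 or 3 or any Petri treated array was left out, at least 1 of FAM162A, AK4 and ZNF395 lost its call, with adjusted p between 0.0506 and 0.0657. The signs of the 6 differences did not change in these fits.

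**Figure D4:**
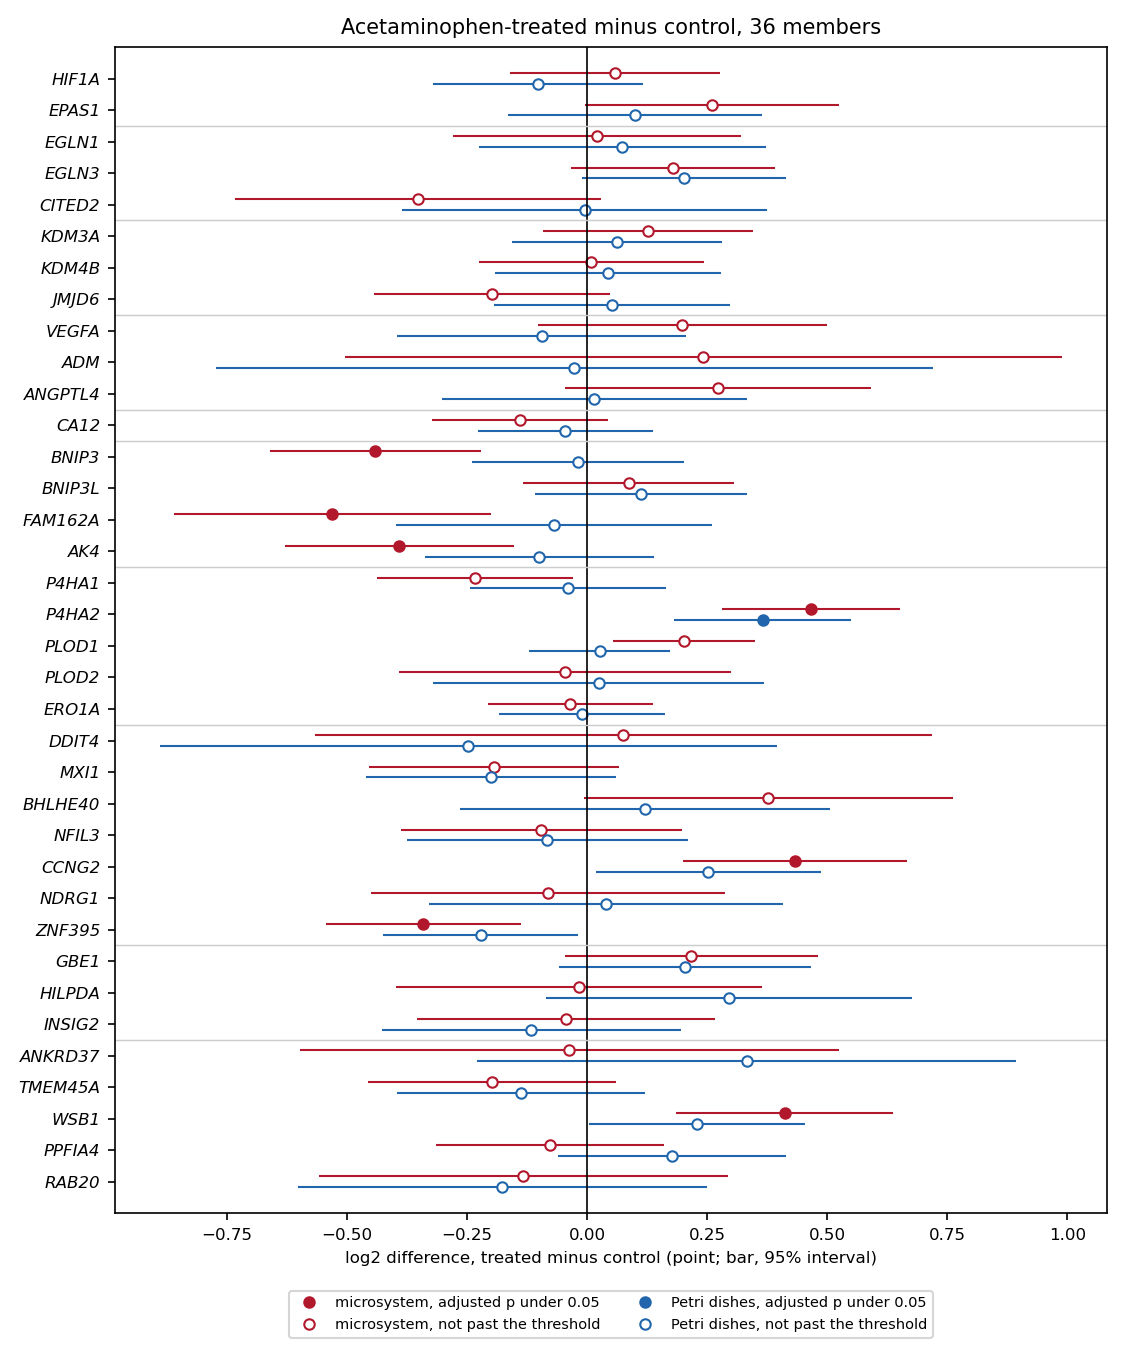
Log2 difference with acetaminophen (treated minus control, horizontal axis) of each of the 36 genes, in the microsystem and in Petri dishes, with 95% intervals from the limma fit. Points lie close to 0, from -0.53 for FAM162A to 0.47 for P4HA2 in the microsystem and from -0.25 to 0.37 in Petri dishes.

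The effects of acetaminophen in the microsystem and in Petri dishes share no arrays. Of the 36 genes 26 (72.2%) had the same sign in both, as did 73% of all genes tested, and the differences correlated with r = 0.54 and rho = 0.55 across the 36 genes, and with r = 0.661 and rho = 0.634 across all genes tested. A direct limma test of how the drug effect differed, as microsystem minus Petri, passed for 0 of the 36 genes, while 0.00758% of all genes tested had a higher and 0.0227% a lower effect in the microsystem. At an unadjusted p under 0.05 there was 1 of the 36 genes (2.78%), against 7.35% of all genes tested. That gene was BNIP3, with a difference of -0.42 (95% interval -0.73 to -0.11, adjusted p = 0.504). Of the 36 genes 21 had a 95% interval of this difference within 1.5-fold, so a larger difference in the others is not bounded by these arrays.

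With treatment, 3 of the 18 glycolytic targets fell in the microsystem, where 2.67% of all genes tested fell. They were HK2 (-0.60), the pyruvate dehydrogenase kinase PDK1 (-0.55) and the isomerase GPI (-0.39), with log2 differences in brackets. In Petri dishes 1 rose, the related kinase PDK3 (0.56), where 8.38% of all genes tested rose. HIF1AN rose in both, by 0.33 in the microsystem (adjusted p = 0.0324) and 0.49 in Petri dishes (adjusted p = 0.00321). EPO, the red-cell hormone, fell in both, by 0.43 in the microsystem and 0.45 in Petri dishes. HIF1A itself had a difference of 0.06 in the microsystem (adjusted p = 0.75) and -0.10 in Petri dishes (adjusted p = 0.562), and did not pass in either.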

How the data were processed

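Each deposited value is a log2 signal of 1 probe set. The authors computed it by RMA with Affymetrix Expression Console, as the submitters' processing notes say. Program versions are not given here in the labels, nor is a genome build. The deposited values were used without new normalization. Of 32321 probe sets 19158 had 1 gene symbol in the array's annotation, 1388 had several and 11775 had none here. Where a gene had several such probe sets, that of highest mean was kept, and genes above an array's 40th percentile on at least 3 arrays were tested.

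In limma 3.58.1 (R 4.3.3, with the package data.table at version 1.17.8) all 12 arrays entered 1 model with a term for each group. Empirical Bayes moderation had 8 residual and 5.35 prior degrees of freedom. Tests were two-sided, with Benjamini-Hochberg adjustment over 13199 genes and a threshold of 0.05. SE values and 95% intervals come from that fit. This fit was also tested on simulated data in which the changed genes were known, with 50 genes of each size of change. In the culture and treatment comparisons it recovered 6% to 8% of 1.2-fold changes and 74% to 80% of 1.5-fold changes. For the difference of treatment effects it recovered 2% of 1.2-fold and 34% of 1.5-fold changes. All other genes were left unchanged in the simulation. In the data 26.5% of genes tested rose and 18.3% fell between the cultures in control cells, which makes the adjustment less strict. The simulated shares are therefore not the power of the culture tests. Promoter windows were searched in Python 3.11.15 with pandas 2.3.3, and figures were drawn with matplotlib 3.10.9. Precision is limited by having 3 arrays in a group.

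The genes of the list, the other lists, the tests and the naming rule were chosen with earlier results of these data known. The rule prints values of every array for HIF1A, EPAS1, VEGFA, EGLN3, NDRG1 and, among genes past the threshold, the 10 largest differences of each culture comparison and the 6 largest of each treatment comparison, and up to 3 genes of each other list. PLOD2 is outside it and was chosen after its values were seen.

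Whether replicate numbers pair the arrays was checked by correlating deviations from the group mean between same-numbered arrays. Between treated and control arrays of the Petri dishes the 3 correlations were 0.477, 0.189 and 0.307, all above 0.1, which was taken as pairing. Those of the microsystem were 0.107, 0.071 and 0.604. Between the cultures they were 0.141, -0.138 and 0.13 in treated cells and 0.184, -0.034 and 0.13 in control cells. None of these sets was taken as pairing. Alternatives were a replicate block over all groups or within each culture, quantile normalization, equal array medians, a filter at the 60th percentile or none, the mean over probe sets, array weights, an intensity trend, only the arrays compared, and each array left out. Leaving out both microsystem arrays numbered 3 was added after seeing the data.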

Additional observations from a re-analysis of the deposited data

How the results depend on the processing

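No gene that passed changed direction under any alternative tried. Between the cultures, leaving out 1 array at a time gave 27 to 32 fallen genes and 1 to 1 risen gene in treated cells, and 27 to 30 fallen and 1 to 1 risen in controls. Of 32 calls in treated cells 28, and of 31 in controls 27, passed under all alternatives tried. Without both microsystem arrays numbered 3, 2 genes rose in controls. With acetaminophen, leaving out 1 array gave 0 to 1 risen and 0 to 0 fallen genes in Petri dishes. There 2 rose with the replicate block within each culture, and with array weights 5 rose and 1 fell, while over all genes tested 2424 rose and 1178 fell with array weights, against 1106 and 261 without them. With the block 1648 of all genes tested rose and 532 fell. In the microsystem leaving out 1 array gave 1 to 3 risen and 0 to 4 fallen genes. The replicate block within each culture gave 5 risen genes there, although the numbers were not taken to pair those arrays. With that block CITED2 also fell, by 0.35 (adjusted p = 0.0242). Over all genes tested 1383 rose and 726 fell in the microsystem with the block, against 843 and 353 without it. Only the arrays compared gave 1 risen and 0 fallen genes of the list there, and 381 risen and 72 fallen among all genes tested. With array medians set equal, without a filter, and without both microsystem arrays numbered 3, 1 gene fell in each case. Fewer fell also without Petri control array 2 (1 gene) or 3 (2 genes) or Petri treated array 2 or 3 (1 gene each), which enter that fit through the shared spread alone, and without microsystem control array 1 (2 genes), control array 2 or treated array 2 or 3 (0 genes each). Rises numbered 1 without microsystem control array 2 or 3 or treated array 1 or 2. The cause of these changes was not tested.

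The replicate block over all 4 groups left every count of risen and fallen genes of the list within 1.5 times, with 30 fallen in controls, and the difference of treatment effects had 0 genes under every alternative. Over all genes tested the share of rises among calls was 70.5% for treatment in the microsystem, 84.1% with only the arrays compared and 81.6% with equal array medians. For treatment in Petri dishes it was 80.9%, and 67.3% with array weights. The deposited values carry no measure of signal over background, so what dim probe sets limit is not known.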

Other observations

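Other regulators share some of these genes, and their targets were counted in the same fits. Between the cultures 22.6% of all genes tested rose and 18.9% fell in treated cells, and 26.5% rose and 18.3% fell in control cells. Of 9 tested targets of PPAR alpha, the fatty acid receptor that also turns on ANGPTL4, 7 rose in the microsystem in treated and in control cells, while ANGPTL4 fell. EHHADH, an enzyme of fatty acid oxidation in peroxisomes, had a log2 difference of 1.25 ± 0.17 in control cells (adjusted p = 6.6e-05) and CREB3L3, a liver transcription factor, had 1.21 ± 0.21 (adjusted p = 0.000459). Of 18 tested targets of ATF4, the stress factor that also turns on DDIT4 and VEGFA, 5 rose and 6 fell in treated cells, and 3 rose and 5 fell in control cells. Of 16 tested targets of p53, 10 rose with acetaminophen in the microsystem, where 6.39% of all genes tested rose, and 13 in Petri dishes, where 8.38% rose.

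Among the HIF targets outside the list, IGFBP1, a liver-secreted binder of growth factors, had a difference with acetaminophen of 0.88 ± 0.19 in the microsystem (adjusted p = 0.015) and -0.63 ± 0.19 in Petri dishes (adjusted p = 0.0554). LOX had -0.94 ± 0.26 in the microsystem (adjusted p = 0.0385) and -0.08 ± 0.26 in Petri dishes (adjusted p = 0.875). The difference of treatment effects did not pass for either gene, with adjusted p of 0.0776 for IGFBP1 and 0.64 for LOX.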
